A study of Homo sapiens with 4 samples.

Results

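Ribosome biogenesis factors were followed by ribosome profiling, which counts the message fragments that ribosomes cover, in HCT-8, an established human colorectal cancer cell line. The cells used had become resistant to 5-fluorouracil (5-FU), a base analogue used as a drug against such tumours. The set holds 46 genes, chosen by symbol as a list of nucleolar proteins that make, modify or assemble the parts of the ribosome. All 46 were found among the 20323 rows of the deposited tables, each in a single row, and all 46 were among the 12560 genes kept for testing. Each of them would also have passed the filter on low counts with the control libraries alone. Cells were transfected with a METTL14 overexpression plasmid (OE) or a negative control plasmid (NC), with 2 libraries in each group from experiments that the design text calls independent. METTL14 is the RNA-binding partner in the methyltransferase that places N6-methyladenosine on messages. Both groups carried the 5-FU resistance and both received 100 ug/mL cycloheximide, which holds ribosomes on messages. The labels name neither the promoter of the plasmid nor whether the resistant line is a clone. No total RNA library was analysed here, so a footprint count reflects the amount of a message together with its translation.

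Ribosomes are built in the nucleolus, where RNA polymerase I transcribes a long precursor of the ribosomal RNAs. Box C/D and box H/ACA ribonucleoproteins (snoRNPs), guided by small nucleolar RNAs, methylate the precursor and convert uridines to pseudouridines. The small-subunit processome, which includes the UtpA and UtpB subcomplexes, folds and cleaves the part that becomes the 40S subunit. Other factors, among them the complex of PES1, BOP1 and WDR12, mature the 60S subunit. In colorectal tumours this pathway is known as a target of the transcription factor MYC, and 5-FU is known to disturb the processing of ribosomal RNA.

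The deposited counts summed to 7742274 and 24392875 in OE replicates 1 and 2, and to 21846389 and 18707758 in NC replicates 1 and 2. Levels are given as CPM, counts scaled to a library of 1000000 after TMM scaling, which corrects library totals for differences in composition. METTL14 had 448 and 91.2 CPM in the OE libraries, against 44.5 and 47.6 CPM in the NC libraries, so the plasmid's gene was higher in both OE libraries and very unevenly so. OE replicate 1 stood apart: against the NC mean, genes in the lowest decile of NC level had a median log2 difference of 1.17 there, and genes in the highest decile -1.08. Over all genes tested, log2 differences between replicates had an SD of 1.30 for OE and 0.46 for NC. Each result is therefore given per library, and with each OE library left out. Of 9 epithelial markers, EPCAM, CDH1, KRT8, KRT18 and KRT19 lay between 467 and 10639 CPM in the OE libraries and between 936 and 9116 CPM in the NC libraries. VIL1 had 32.9 and 40.3 CPM in the OE libraries, against 74.0 and 82.2 CPM in the NC libraries, and CDX2 had 27.2 and 44.3 CPM in OE, against 27.1 and 21.9 CPM in NC. EPCAM, CDH1, KRT19 and VIL1 were lower and CDX2 higher in both OE libraries, KRT8 and KRT18 overlapped, and none of them was called by edgeR's quasi-likelihood test, while KRT20 and CEACAM5 were at 1.45 CPM or less in each library. The markers PTPRC, CD3E, PECAM1, COL1A2, DCN and HBB of other cell types were at 0.381 CPM or less in each library. CD68, which many cell types express, had 40.8 and 28.7 CPM in the OE libraries, against 70.6 and 75.5 CPM in the NC libraries. COL1A1 and ALB lay between 0.452 and 4.09 CPM in OE and between 0 and 4.87 CPM in NC.

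A search of the DNA around the gene starts found the canonical E-box CACGTG, the sequence that MYC and related factors bind, in many of the genes. The windows came from RefSeq on build GRCh38.p14 and ran from 250 bases before to 50 bases after each start. They were found for 39 members, but not for BOP1, NOLC1, NOP58, RRP1B, RRP12, RRS1 and TCOF1. CACGTG reads the same on both strands. It was present for 17 of the 39 members (43.6%), against 1262 of 10006 tested genes with a window (12.6%) and 2396 of all 27305 genes of the table (8.77%). Most of the matches lay close to the start, but not all, as that of UTP14A began at position -241. Wholly after the start, CACGTG occurred for 12 of the 39 members (30.8%), against 150 tested genes (1.5%) and 306 of all genes (1.12%). Wholly before the start it occurred for 5 members (12.8%), against 1128 tested genes (11.3%) and 2110 of all genes (7.73%). The member list was not drawn from promoter sequences, and a match is a description of the letters, not a site of binding. The 9 matches that begin within 15 bases of the start are printed here, 5′ to 3′ on the gene's strand with 12 bases on each side and the E-box in capitals. They were chosen by that distance, so their like position follows from the choice.
WDR43, chr2:28894658-28894687, plus strand: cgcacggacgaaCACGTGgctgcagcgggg
RRP9, chr3:51941892-51941921, minus strand: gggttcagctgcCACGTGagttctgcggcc
UTP18, chr17:51260538-51260567, plus strand: gcagcgaggttcCACGTGagcgcctgcgtt
FBL, chr19:39846356-39846385, minus strand: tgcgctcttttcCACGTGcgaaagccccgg
GNL3, chr3:52686026-52686055, plus strand: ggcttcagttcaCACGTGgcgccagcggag
UTP20, chr12:101280083-101280112, plus strand: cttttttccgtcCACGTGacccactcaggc
NOP10, chr15:34343130-34343159, minus strand: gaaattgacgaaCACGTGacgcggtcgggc
NOL6, chr9:33473894-33473923, minus strand: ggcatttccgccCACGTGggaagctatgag
PES1, chr22:30591880-30591909, minus strand: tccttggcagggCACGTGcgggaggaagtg
In this order the motif began at positions 4, -5, 5, 7, 7, -10, -11, 14 and 14, counted with the first transcribed base as 1. FBL, GNL3 and PES1, described below, are among them.

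**Figure D1:**
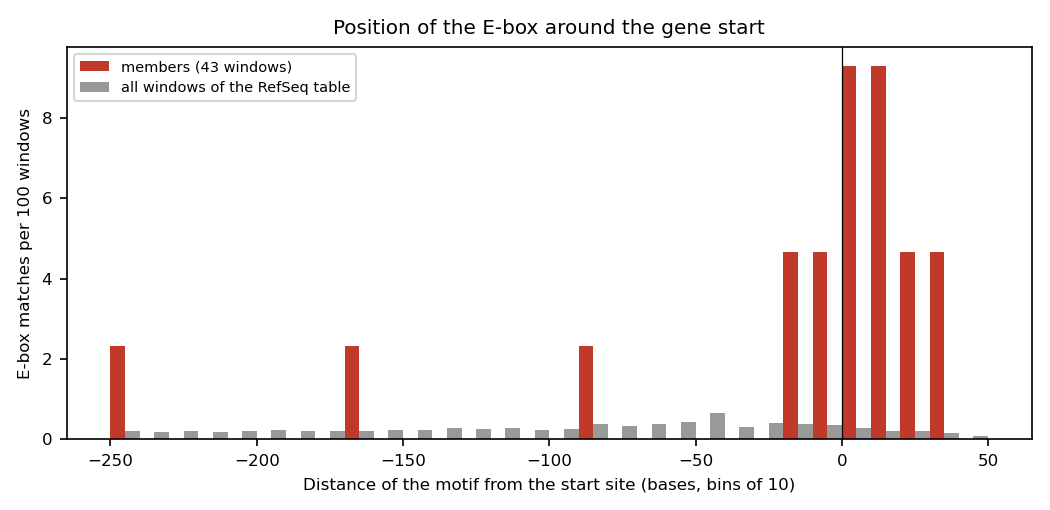
Matches to the E-box per 100 promoter windows (vertical axis) by distance from the gene start in bases, in bins of 10 (horizontal axis), for 43 windows of members (red) and for all 35116 windows of the RefSeq table (grey). The red bars cluster from 20 bases before to 40 bases after the start, where the grey bars reach at most 0.379.

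The members with and without an E-box in these windows had medians on the same side of NC in each OE library. The 17 with one had medians of -0.49 and 0.24 (OE replicates 1 and 2, log2 difference from the NC mean). The 22 without one had -0.60 and 0.07, and these are descriptions with no test. MYC itself had 123 and 65.3 CPM in the OE libraries, against 85.9 and 78.6 CPM in the NC libraries, so the groups overlapped.

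Over both OE libraries, no ribosome biogenesis factor passed the test against NC. With Benjamini-Hochberg adjustment, edgeR's quasi-likelihood test called 0 of the 46 members at 0.05, and 0 of all 12560 genes (0%). At an unadjusted p below 0.05 there were 2 members, RRP12 and UTP14A, both lower, beside 691 genes (5.5%, with 2.98% higher and 2.52% lower). DESeq2 called 0 members and 0.199% of all genes, edgeR's likelihood ratio test 0 members and 0.231% of all genes, and limma on quantile normalized values 0 members and 0 genes. The members had a median log2 fold change of -0.09, from -0.77 for RRP12 to 0.78 for NOP56, against a median of 0.09 over all genes tested. With library totals as the only scaling these medians turned to 0.16 and 0.40, so the members lay 0.19 below the median of all genes with TMM and 0.24 below it with totals. The offset was -0.09 with quantile normalization, -0.61 without OE replicate 2 and, with the opposite sign, 0.17 without OE replicate 1. For 10 members (21.7%) both OE values lay below both NC values, close to the 20.4% of all genes tested. These were NHP2, NOLC1, POLR1A, UTP6, UTP3, UTP11, UTP14A, RRP12, NOC2L and PES1. For NOP56, NOP14 and RRP1B (3 members, 6.52%, against 19.9% of all genes tested) both OE values lay above, and the groups overlapped for the other 33. Under TMM, RLE, totals and quantile scaling alike, 4 members stayed lower (NHP2, UTP14A, RRP12 and NOC2L; 8.7%, against 10.8% of all genes tested) and 3 higher (6.52%, against 15.6%).

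With TMM scaling, the 2 OE libraries lay on opposite sides of the NC libraries for much of the set. These sides depend on the TMM factors, 1.36 and 0.907 for OE replicates 1 and 2, and 0.889 and 0.912 for NC. With totals as the only scaling, 12 members were higher in both OE libraries (26.1%, against 30.2% of all genes tested). In that scaling 6 were lower (13%, against 11.7%). CPM and log2 differences per library below use TMM scaling. Against the NC mean, the members had a median of -0.54 on the log2 scale in OE replicate 1, and 36 of 46 members (78.3%) lay below both NC libraries, against 45.5% of all genes tested, and 6 (13%) above both, against 46.7%. Their median in OE replicate 2 was 0.16, and 27 of 46 (58.7%) lay above both NC libraries, against 42.8% of all genes tested, and 14 (30.4%) below both, against 42.5%. These are messages of high footprint level: 31 of the 46 were in the top 3 deciles of NC level and 1, NOC3L, in the lower 5 deciles. In those top 3 deciles the members' medians in OE replicate 1 were -0.32, -0.52 and -0.82, against -0.34, -0.65 and -1.08 for all genes of the same deciles. In deciles 6 and 7 the members had -0.60 and -0.60, against 0.06 and -0.13 for all genes there. In OE replicate 2 the members of those 2 deciles had 0.37 and 0.46, against 0.01 and 0.01. Set against the median of their own decile, 20 of 46 members were above it in OE replicate 1, and so were 31 of 46 in the second OE library.

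**Figure D2:**
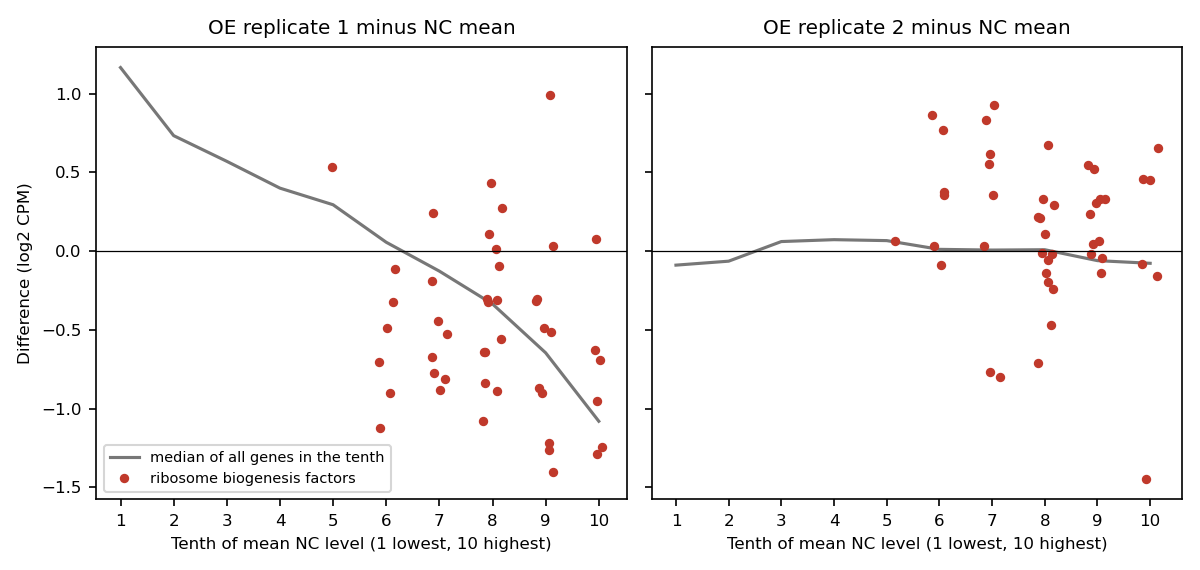
Log2 difference of each OE library from the NC mean (vertical axis, log2 CPM) by decile of mean NC level (horizontal axis, 1 lowest), for the 46 members (red points, spread sideways for clarity) and for the median of all genes in the decile (grey line). In OE replicate 1 the grey line falls to -1.08 at the highest decile and the points follow it loosely, while in OE replicate 2 the line stays near 0 and most points lie above it.

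Fits that left out an OE library called many members, in directions set by the library that remained. Left with OE replicate 2, edgeR's quasi-likelihood test called 12 members higher (26.1%, against 16.8% of all genes tested) and 5 lower (10.9%, against 17.3%), where 34.1% of all genes were called. Left with OE replicate 1, it called 3 members higher (6.52%, against 30.1%) and 29 lower (63%, against 30.8%), where 60.9% of all genes were called. Both fits share the NC libraries and rest on their spread, with the lone OE library assumed to vary as they do, so their p-values do not cover the spread between OE cultures. The values of both fits are given side by side below, as "without OE replicate 1" and "without OE replicate 2". A change of library scale moves all of these genes together, so a ratio between 2 members within a library is also given where it adds to the picture. Such a ratio is not corrected for length and is read only across libraries. Where the 2 members lie in different deciles of NC level, the level-dependent shift of OE replicate 1 does not cancel.

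**Figure D3:**
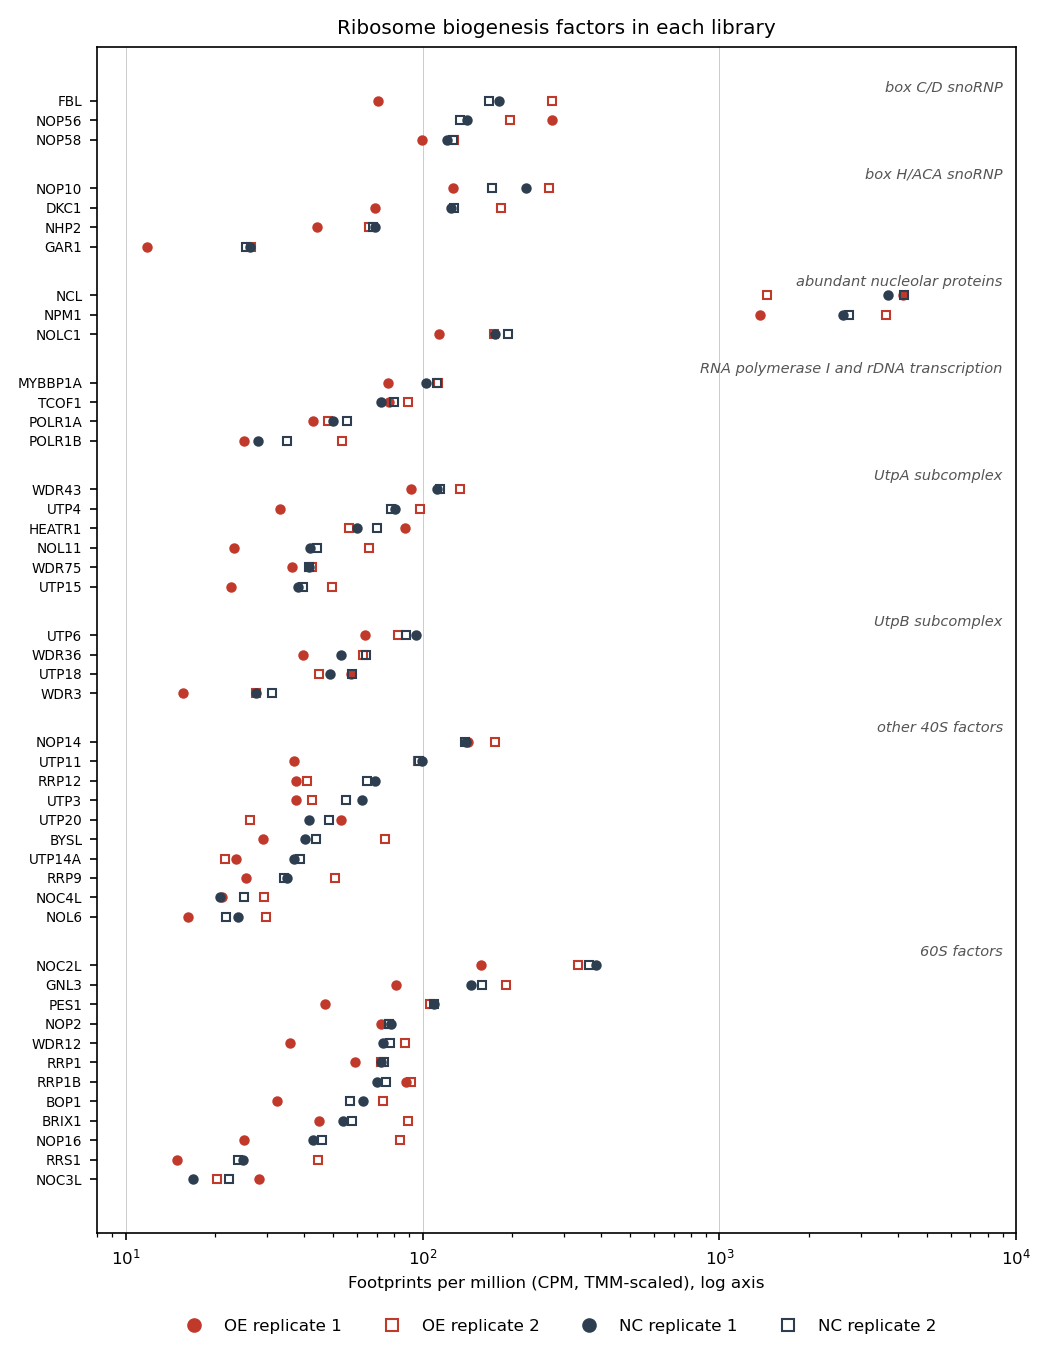
Footprint level of each of the 46 members (CPM, TMM-scaled, log axis) in OE replicates 1 and 2 (red, filled and open) and NC replicates 1 and 2 (dark, filled and open), ordered by role. The dark symbols nearly coincide for most genes, while filled red lies left and open red right of them for many; levels of different genes are not corrected for length.

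Among the core proteins of the box C/D snoRNP, which carries out ribose methylation, NOP56 was higher in both OE libraries while the methyltransferase FBL (fibrillarin) split. NOP56 (ENSG00000101361), a scaffold protein of the particle, had 274 and 197 CPM in OE replicates 1 and 2, against 141 and 134 CPM in NC replicates 1 and 2. Both OE values were the higher ones, with means of 235 ± 53.9 CPM for OE and 137 ± 5.31 CPM for NC (SD, n = 2 each). Its log2 fold change was 0.78 (SE 0.38). By edgeR's quasi-likelihood test its adjusted p was 0.734, and it lay between 0.604 and 1.000 over the fits with all 4 libraries. It was called higher without OE replicate 1, at 0.52, and without OE replicate 2, at 0.95, in fits that share the NC libraries. FBL (ENSG00000105202) had 71.0 and 274 CPM in the OE libraries, against 180.2 and 167 CPM in the NC libraries, so the OE values lay on either side of NC. In OE replicate 1 FBL had a log2 difference from the NC mean of -1.29, against a median of -1.08 for all genes of its NC decile. Its log2 fold change was -0.01 (SE 0.68). It was called higher without OE replicate 1, at 0.66, and lower without OE replicate 2, at -1.33. NOP58 (ENSG00000055044), the partner of NOP56, had 99.5 and 128 CPM in the OE libraries, against 121 and 126 CPM in the NC libraries, and the groups overlapped. The count ratio of NOP56 to FBL was 3.85 and 0.721 in OE replicates 1 and 2, against 0.783 and 0.799 in NC replicates 1 and 2. OE replicate 1 stood far above the other libraries, and OE replicate 2 slightly below NC. The ratio of NOP56 to NOP58 was 2.75 and 1.54 in OE replicates 1 and 2, against 1.16 and 1.06 in NC replicates 1 and 2, and here both OE libraries lay above NC. Introns of NOP56 and NOP58 host small nucleolar RNAs, and whether such reads entered the counts is not given in the sources used here.

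All 4 proteins of the box H/ACA snoRNP, which makes pseudouridine, had footprints below NC in OE replicate 1. Among all genes tested, those below the NC mean in that library made up 79.9%, 92.9%, 69.7% and 47.1% of the NC deciles of DKC1, NOP10, NHP2 and GAR1. DKC1 (dyskerin, ENSG00000130826), the pseudouridine synthase, had 68.9 and 184 CPM in the OE libraries, against 124 and 128 CPM in the NC libraries. NOP10 (ENSG00000182117), a small protein bound to dyskerin, had 126 and 267 CPM in OE and 222 and 171 CPM in NC. For both, the OE values lay on either side of NC: without OE replicate 1 they were called higher, at 0.55 and 0.45, and without OE replicate 2 lower, at -0.91 and -0.68. NHP2 (ENSG00000145912), which binds the guide RNA, had 44.0 and 65.9 CPM in the OE libraries, against 69.0 and 68.2 CPM in the NC libraries. Its OE values were below NC under TMM, RLE, totals and quantile scaling, but OE replicate 2 by little, with TMM by less than counting error. Its log2 fold change was -0.32 (SE 0.34). GAR1 (ENSG00000109534), which helps release the substrate, had 11.8 and 26.5 CPM in OE and 26.3 and 25.4 CPM in NC, with OE replicate 2 just above NC. Without OE replicate 2 both were called lower, at -0.68 for NHP2 and -1.17 for GAR1. The count ratio of GAR1 to DKC1 was 0.171 and 0.144 in OE replicates 1 and 2, against 0.211 and 0.199 in NC replicates 1 and 2. It was lower in both OE libraries, although in OE replicate 1 by less than the counting error allows to tell. The other ratios of the complex did not separate the groups. NHP2 to DKC1 was 0.638 and 0.358 in OE replicates 1 and 2, against 0.555 and 0.533 in NC replicates 1 and 2, and NOP10 to DKC1 was 1.83 and 1.45 in OE replicates 1 and 2, against 1.79 and 1.33 in NC replicates 1 and 2. The adjusted p of the 4 genes lay between 0.804 and 0.999 by edgeR's quasi-likelihood test.

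The most abundant nucleolar proteins, NCL and NPM1, parted from each other in both OE libraries. NPM1 alone was below NC in OE replicate 1, and NCL alone in OE replicate 2. Nucleolin (NCL, ENSG00000115053), a chaperone of ribosomal RNA precursors, had 4139 and 1444 CPM in OE replicates 1 and 2, against 3689 and 4186 CPM in NC replicates 1 and 2. OE replicate 1 lay within the NC values and OE replicate 2 far below them. Nucleophosmin (NPM1, ENSG00000181163), a chaperone of late 60S assembly, had 1374 and 3634 CPM in OE, against 2597 and 2726 CPM in NC. Its value in OE replicate 1 lay far below NC and that in OE replicate 2 above. In OE replicate 1, 92.9% of all genes in the NC decile of both genes lay below the NC mean, with a median of -1.08. NPM1 had -0.95 there and NCL 0.07, as log2 differences from the NC mean. The count ratio of NCL to NPM1 was 3.01 and 0.397 in OE replicates 1 and 2, against 1.42 and 1.54 in NC replicates 1 and 2. The OE libraries stood on opposite sides of the NC libraries, which lay close together. Log2 fold changes were -0.50 (SE 0.80) for NCL and -0.09 (SE 0.75) for NPM1, neither called. Without OE replicate 1 NCL was called lower, at -1.45 (adjusted p = 6.38e-11, edgeR's quasi-likelihood test), and NPM1 higher, at 0.45. Without OE replicate 2 NCL had 0.03 and was not called (adjusted p = 0.846, edgeR; 0.861 to 1.000 over the fits with all 4 libraries), while NPM1 was called lower, at -0.99. Processed copies of NPM1 are known in the genome, so its count may share reads with them. NOLC1 (ENSG00000166197), which shuttles snoRNPs into the nucleolus, had 114 and 174 CPM in OE and 175 and 193 CPM in NC. OE replicate 2 was so close below NC that the groups overlapped under RLE, totals and quantile scaling.

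NCL and NPM1 together held 67.9% and 55.1% of all counts of the set in OE replicates 1 and 2, and 63.5% and 65.5% in NC replicates 1 and 2. The whole set took 1.10% of the library's counts in OE replicate 1 (exact binomial 95% interval 1.09% to 1.11%) and 0.836% in OE replicate 2 (0.832% to 0.839%). In NC replicates 1 and 2 it took 0.880% (0.876% to 0.884%) and 0.962% (0.957% to 0.966%), so the groups overlapped. The intervals cover counting error only.

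**Figure D4:**
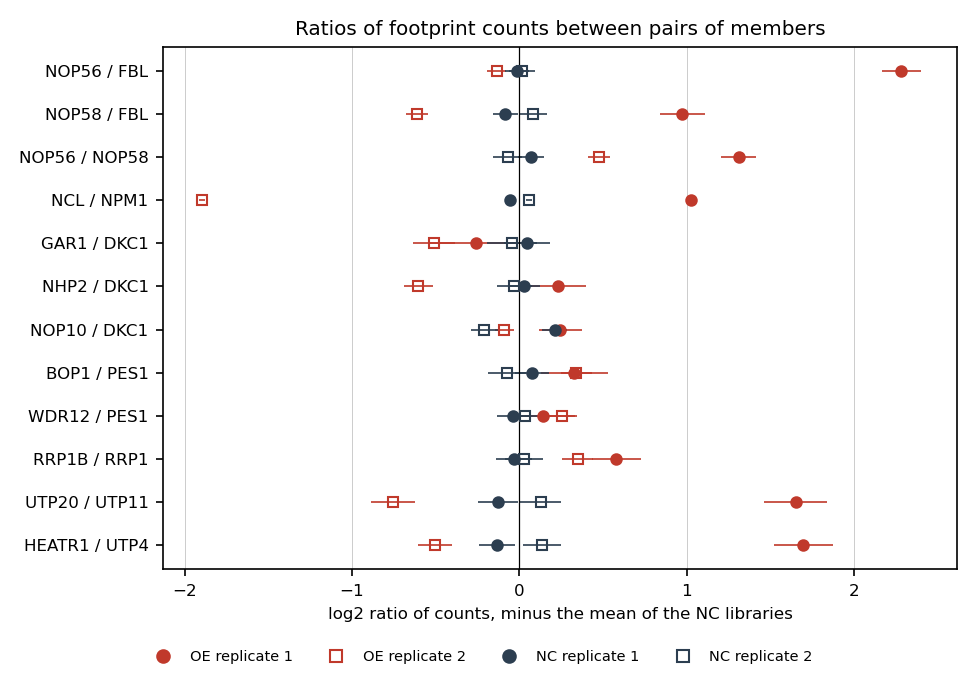
Log2 ratio of the footprint counts of 2 members in each library, minus the mean of both NC libraries (horizontal axis), for 12 pairs (rows), with 95% counting intervals as bars; OE is red, NC dark, replicate 1 filled and replicate 2 open. NCL over NPM1 lies far right of NC in OE replicate 1 and far left of it in OE replicate 2, while RRP1B over RRP1 and BOP1 over PES1 lie above the NC values in both OE libraries.

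Genes of RNA polymerase I and of ribosomal DNA transcription had log2 fold changes between -0.22 and 0.32, none of them called. POLR1A (ENSG00000068654), the largest catalytic subunit, had 42.7 and 47.9 CPM in the OE libraries, against 50.1 and 55.5 CPM in the NC libraries. The OE values were lower by a little, at a log2 fold change of -0.22 (SE 0.29), which turned to 0.09, with overlapping groups, when totals were the only scaling. POLR1B (ENSG00000125630), the other subunit of the catalytic centre, had 24.9 and 53.4 CPM in OE, against 28.0 and 34.9 CPM in NC. It was called higher without OE replicate 1, at 0.77, and had -0.37 without OE replicate 2. TCOF1 (treacle, ENSG00000070814), which links polymerase I to ribosomal DNA, had 77.1 and 89.0 CPM in OE and 72.7 and 80.4 CPM in NC, overlapping. MYBBP1A (ENSG00000132382), a nucleolar protein that binds MYB, had 76.3 and 112 CPM in OE and 103 and 112 CPM in NC, with OE replicate 1 below NC and OE replicate 2 level with it. Adjusted p lay between 0.844 and 0.919 for these 4 genes by edgeR's quasi-likelihood test.

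The 6 proteins of UtpA, which bind the start of the ribosomal RNA precursor and also support its transcription, all overlapped between the groups with TMM scaling. So did 7498 of all 12560 genes tested. UTP4 (ENSG00000141076) had 33.0 and 98.2 CPM in the OE libraries, against 80.6 and 78.4 CPM in the NC libraries, low in OE replicate 1 and high in OE replicate 2. HEATR1 (ENSG00000119285), the very large scaffold of the complex, ran the other way, at 87.6 and 56.7 CPM in OE and 60.05 and 70.3 CPM in NC. The count ratio of HEATR1 to UTP4 was 2.65 and 0.577 in OE replicates 1 and 2, against 0.745 and 0.897 in NC replicates 1 and 2. Without OE replicate 2 HEATR1 was called higher, at 0.39, and UTP4 lower, at -1.31. Neither was called without OE replicate 1, with -0.20 and 0.31. WDR43 (ENSG00000163811) had 91.7 and 133 CPM in OE and 112 and 115 CPM in NC. WDR75 (ENSG00000115368) was nearly even, at 36.4 and 42.4 CPM in OE and 41.5 and 41.4 CPM in NC. NOL11 and UTP15 followed UTP4, below both NC libraries in OE replicate 1 and above both in OE replicate 2, at -0.88 and 0.62 for NOL11 and -0.77 and 0.35 for UTP15 as log2 differences from the NC mean.

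In UtpB, which joins the processome next, the 4 members had log2 fold changes between -0.44 and -0.06, all below 0 with TMM scaling. Of all genes tested, 5507 of 12560 were below 0 as well. UTP6 (ENSG00000108651) had 64.0 and 82.9 CPM in the OE libraries, against 94.9 and 88.1 CPM in the NC libraries, lower in both except with totals as the only scaling, where the groups overlapped. WDR3 (ENSG00000065183) had 15.6 and 27.5 CPM in OE and 27.4 and 31.1 CPM in NC, and WDR36 (ENSG00000134987) had 39.6 and 63.0 CPM in OE and 53.2 and 64.2 CPM in NC. For these 3 the lower value was that of OE replicate 1, and without OE replicate 2 each was called lower, at -0.56, -0.95 and -0.61. None of them was called without OE replicate 1, at -0.14, -0.09 and 0.10. UTP18 overlapped, with log2 differences from the NC mean of 0.11 and -0.24 in OE replicates 1 and 2. With totals as the only scaling WDR36 and UTP18 turned to 0.07 and 0.30.

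Of the other 40S factors, RRP12, UTP14A and UTP3 were lower in both OE libraries, by similar amounts. RRP12 (ENSG00000052749), a repeat protein of late 40S maturation and export, had 37.4 and 40.9 CPM in OE replicates 1 and 2, against 69.0 and 65.0 CPM in NC replicates 1 and 2. UTP14A (ENSG00000156697), known in yeast as the cofactor that activates the helicase of the processome, had 23.6 and 21.5 CPM in OE, against 36.8 and 38.5 CPM in NC. UTP3 (ENSG00000132467), also called SAS10, had 37.5 and 42.3 CPM in OE, against 62.4 and 55.1 CPM in NC. In each of the 3 the gap between the groups was wider than the gap between replicates. Group means were 39.1 ± 2.45 and 67.0 ± 2.87 CPM for RRP12, 22.6 ± 1.47 and 37.6 ± 1.23 CPM for UTP14A, and 39.9 ± 3.37 and 58.8 ± 5.17 CPM for UTP3, each OE and then NC (SD, n = 2 each). Log2 fold changes were -0.77 (SE 0.29), -0.74 (SE 0.28) and -0.56 (SE 0.30). The unadjusted p was 0.0447, 0.0454 and 0.118, and the adjusted p 0.734 for each by edgeR's quasi-likelihood test, so none was called over all genes.

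The 3 genes, picked for the smallest p of their group in these same 4 libraries, were also fitted with each OE library left out. Low values in both fits follow in part from that choice, so the fits are no separate support. Without OE replicate 1 the log2 fold changes were -0.71 for RRP12, -0.80 for UTP14A and -0.47 for UTP3. Without OE replicate 2 they were -0.88, -0.71 and -0.69. Over the fits with all 4 libraries the adjusted p of RRP12 lay between 0.604 and 1.000, of UTP14A between 0.652 and 1.000, and of UTP3 between 0.694 and 1.000. RRP12 and UTP14A stayed lower in both OE libraries under TMM, RLE, totals and quantile scaling, and UTP3 under all of these but totals, where the groups overlapped.

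UTP11 (ENSG00000183520), a processome protein, had 37.0 and 96.8 CPM in the OE libraries, against 99.2 and 97.0 CPM in the NC libraries, a difference carried by OE replicate 1, and the groups overlapped under RLE and quantile scaling. Leaving out OE replicate 1 gave a log2 fold change of -0.02, and leaving out OE replicate 2 gave -1.45. UTP20, the other very large protein of the set, was singled out after its values were seen, at 53.2 and 26.3 CPM in OE and 41.6 and 48.5 CPM in NC. It ran opposite to UTP11, with count ratios of UTP20 to UTP11 of 1.44 and 0.271 in OE replicates 1 and 2, against 0.419 and 0.4997 in NC replicates 1 and 2. NOP14 (ENSG00000087269), which with NOC4L forms a module of the 40S precursor, had 142 and 175 CPM in OE, against 140.3 and 139 CPM in NC. It was higher in both OE libraries, but in OE replicate 1 by less than counting error, and it was called in neither fit that left out an OE library. BYSL, RRP9, NOC4L and NOL6 overlapped. In OE replicate 2 they lay above both NC libraries, by 0.83, 0.56, 0.36 and 0.38 on the log2 scale from the NC mean, and in OE replicate 1 they had -0.53, -0.44, -0.12 and -0.49.

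**Figure D5:**
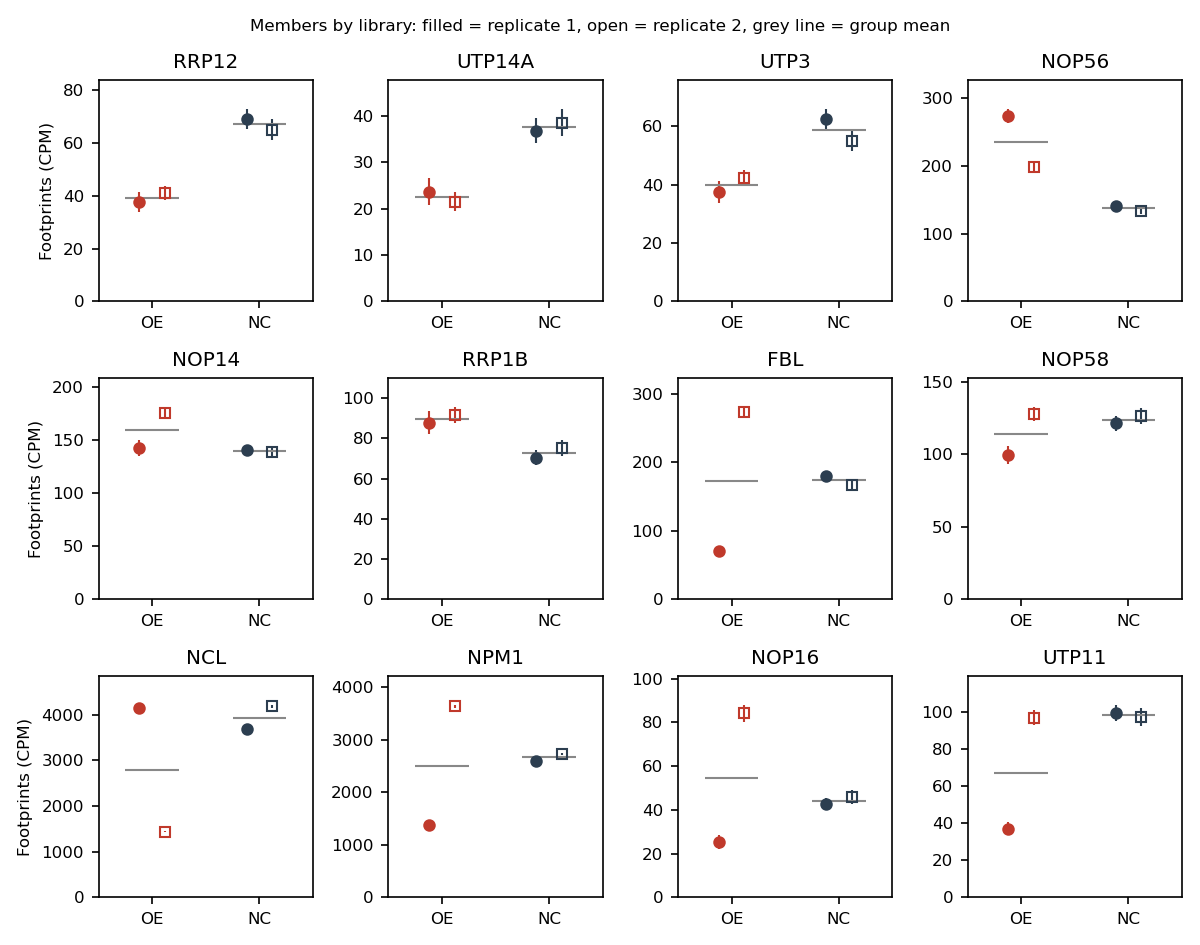
Footprint level (CPM, vertical axes from 0) of 12 members in the OE and NC libraries, replicate 1 filled and replicate 2 open, with exact Poisson 95% intervals for counting error as bars and the group mean as a grey line. RRP12, UTP14A and UTP3 are lower and NOP56 and RRP1B higher in both OE libraries, while FBL, NPM1, NCL and NOP16 have OE values far apart.

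The complex of PES1, BOP1 and WDR12, which processes the RNA between the 2 large-subunit RNAs, was lower as a whole in OE replicate 1. Most genes of similar level were too. Below the NC mean in that library lay 79.9% of all genes in the NC decile of PES1, and 69.7% in that of BOP1 and WDR12. PES1 (pescadillo, ENSG00000100029) had 46.8 and 106 CPM in the OE libraries, against 109 and 109 CPM in the NC libraries. BOP1 (ENSG00000261236) had 32.3 and 73.6 CPM in OE and 63.1 and 57.0 CPM in NC, and WDR12 (ENSG00000138442) had 35.7 and 87.3 CPM in OE and 73.6 and 77.4 CPM in NC. OE replicate 1 was below NC for all 3, at -1.22, -0.89 and -1.08 on the log2 scale from the NC mean, and OE replicate 2 had -0.05, 0.29 and 0.21. PES1 was thus lower in both OE libraries by a narrow margin, and the groups overlapped with quantile normalization. Without OE replicate 2 the 3 genes were called lower, at -1.26, -0.94 and -1.12. None was called without OE replicate 1, at -0.04, 0.29 and 0.21. Count ratios within the complex varied less than that of NCL to NPM1, a contrast between pairs chosen after values were seen. Within other complexes some pairs varied widely, as HEATR1 to UTP4, and others less, as GAR1 to DKC1. BOP1 to PES1 was 0.689 and 0.695 in OE replicates 1 and 2, against 0.578 and 0.521 in NC replicates 1 and 2, and WDR12 to PES1 was 0.762 and 0.825 in OE replicates 1 and 2, against 0.674 and 0.709 in NC replicates 1 and 2. Both ratios were higher in both OE libraries, WDR12 to PES1 in OE replicate 1 by less than the counting error allows to tell. In OE replicate 1 the median of all genes was -0.34 in the decile of BOP1 and WDR12 and -0.65 in that of PES1. How much of the ratios goes with level was not tested.

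Of the remaining 60S factors, NOC2L (ENSG00000188976), which with NOC3L accompanies early 60S particles, had 158 and 334 CPM in the OE libraries, against 384 and 362 CPM in the NC libraries. It was lower in both OE libraries under TMM, RLE, totals and quantile scaling, with a log2 fold change of -0.60 (SE 0.52), but OE replicate 2 lay close to NC and -0.16 was not called without OE replicate 1. RRP1B (ENSG00000160208) was higher in both OE libraries, at 87.8 and 91.6 CPM, against 70.5 and 75.1 CPM in the NC libraries, with a log2 fold change of 0.30 (SE 0.30). RRP1B was called in neither fit that left out an OE library. Its paralogue RRP1 overlapped, at 59.1 and 72.4 CPM in OE and 72.4 and 74.0 CPM in NC. The count ratio of RRP1B to RRP1 was 1.48 and 1.26 in OE replicates 1 and 2, against 0.974 and 1.01 in NC replicates 1 and 2, higher in both OE libraries. GNL3 (nucleostemin, ENSG00000163938), a nucleolar GTPase, had 81.1 and 191 CPM in OE and 146 and 158 CPM in NC, on either side of NC. NOP16, RRS1 and BRIX1 were called higher without OE replicate 1, at 0.93, 0.87 and 0.67, and had -0.85, -0.75 and -0.37 without OE replicate 2. NOP2, a methyltransferase of the large-subunit RNA, was nearly even at 72.5 and 77.0 CPM in OE and 78.2 and 76.9 CPM in NC. NOC3L had 28.2 and 20.3 CPM in OE and 16.9 and 22.3 CPM in NC, overlapping, and was called higher without OE replicate 2, at 0.48. By edgeR's quasi-likelihood test the adjusted p of the 12 genes of the 60S group lay between 0.762 and 0.964.

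The rest of the pathway was read from 106 further genes of ribosome assembly, none of them called over all 4 libraries by edgeR's quasi-likelihood test, DESeq2 or the likelihood ratio test. At an unadjusted p below 0.05, edgeR's quasi-likelihood test gave 3 of them, beside 691 of all 12560 genes (5.5%). Of the 106, 15 were lower in both OE libraries (14.2%, against 20.4% of all genes tested) and 14 higher (13.2%, against 19.9%). Their median log2 fold change was -0.03, with medians of -0.40 and 0.21 in OE replicates 1 and 2, the same order as in the 46 members. Among 13 further genes of the polymerase I machinery, 4 were higher in both OE libraries, 0 lower, and 11 had a log2 fold change above 0, all with TMM scaling. Of all genes tested, 19.9% were higher in both, 20.4% lower, and 7053 of 12560 had a log2 fold change above 0. TAF1C, a subunit of the promoter selectivity factor, had 53.9 and 27.5 CPM in OE, against 16.7 and 13.5 CPM in NC, a log2 fold change of 1.43 (SE 0.43). POLR1E, a subunit of polymerase I, had 23.3 and 36.3 CPM in OE, against 15.9 and 16.6 CPM in NC, at 0.87 (SE 0.34). These genes had lower footprint levels than most of the set, with 6 of 13 in the lower 5 deciles of NC level, where the median of all genes in OE replicate 1 was 0.29 or more above NC on the log2 scale.

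Of the 106, 4 more genes are named for their small p. UTP23, an early 40S factor, had 23.7 and 26.8 CPM in OE, against 15.1 and 9.85 CPM in NC, at a log2 fold change of 1.01 (SE 0.35). The helicase MTREX and the nuclease DIS3, which both serve the RNA exosome that trims ribosomal RNA, were lower in both OE libraries. MTREX had 44.4 and 42.3 CPM in OE, against 72.2 and 81.5 CPM in NC, and DIS3 had 39.2 and 41.1 CPM in OE, against 65.5 and 64.5 CPM in NC. The 60S GTPase GNL2 had 64.1 and 66.6 CPM in OE, against 104 and 116 CPM in NC. For these 3 the log2 fold changes were -0.83 (SE 0.30), -0.69 (SE 0.29) and -0.75 (SE 0.31), with replicates that lay close together. They were named for a small p in these same 4 libraries, so close replicates follow in part from that choice. GNL2 had log2 differences from the NC mean of -0.77 and -0.72 in OE replicates 1 and 2. The medians of all genes in its NC decile were -0.65 and -0.06. The adjusted p of all 6 named genes was 0.734 by edgeR's quasi-likelihood test.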

How the data were processed

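Each library came as a table that the authors deposited, holding 1 estimated count per gene, in files headed by Ensembl identifier and symbol. Between 13.8% and 14.7% of values held a fraction, and all were rounded before testing. Tools named in the submitters' processing notes are RSEM, StringTie, HISAT2, Bowtie2 and fastp, and the build is hg18. How and in which version these tools were run, with which annotation and strand setting, was not given in the sources used here, so reads of overlapping genes cannot be told apart. The files have no coordinate column, and those printed are of promoter windows, which came from RefSeq on another build, GRCh38.p14, matched by symbol.

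The tools were R 4.3.3, edgeR 4.0.16, DESeq2 1.42.0 and limma 3.58.1. filterByExpr set the filter on low values (minimum count 10, minimum total 15). TMM factors were 1.36 and 0.907 for OE and 0.889 and 0.912 for NC. The fit held group alone, over all genes and all 4 libraries, tested by quasi-likelihood in edgeR with Benjamini-Hochberg adjustment at 0.05. An SE is the log2 fold change divided by the square root of its F statistic. Differences per library use log2 CPM with a prior count of 2. Within groups, counts differed between replicates beyond sampling noise (chi-square per degree of freedom 330.1 in OE, 13.0 in NC), so both libraries of a group were kept. A count of 0 allows up to 3 counts, or between 0.136 and 0.286 CPM.

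The members, gene lists and tests were chosen with earlier results of these data known. In each role group, values per library were given for the 3 members with the smallest p and the 2 with the highest mean CPM, and for all of both snoRNPs and of the PES1 complex. Of the other genes, 106 of 112 listed symbols were found, some being older names, and the 6 with the smallest p were named. Pairs for count ratios were chosen after values were seen. Footprint density per codon was planned and not computed, since protein lengths were not used here. Alternatives were other tests, scalings and filters, the replicate number as a block, summed rows and each library left out.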

Additional observations from a re-analysis of the deposited data

How the results depend on the processing

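Over the 46 members, 0 were called in each fit with all 4 libraries (edgeR's quasi-likelihood and likelihood ratio tests, DESeq2, limma on quantile normalized values, RLE and totals scaling, 2 other filters, summed rows), and the smallest adjusted p among them was 0.604. With the replicate block there were 0 called members, 0 called other biogenesis genes and a member median of -0.18, while 24 of all genes were called, against 0 without it. The labels do not say whether same-numbered libraries shared an experiment. Their deviations correlated at -0.10 across genes, which cannot settle this where the OE replicates differ so widely. The main fit did not treat them as pairs. With totals as the only scaling 6 members were lower (13%, against 11.7% of all genes) and 12 higher (26.1%, against 30.2%) in both OE libraries, and with quantile normalization 8 were lower (17.4%, against 20.7%) and 6 higher (13%, against 18.4%). Leaving out each library in turn gave 0 to 32 called members, 0 to 67 called other biogenesis genes, a member median from -0.59 to 0.16, 11 to 38 members lower (23.9% to 82.6%, with all genes at 24.8% to 45.5%) and 3 to 27 higher (6.52% to 58.7%, with all genes at 25.4% to 46.9%). The highest of these counts came from leaving out OE replicate 1 or OE replicate 2, while without either NC library 0 members were called. Several members changed sign between the fits without OE replicate 1 and without OE replicate 2. The share of all genes that did so is not given here. The log2 fold changes were -1.33 to 0.66 for FBL, -0.99 to 0.45 for NPM1, -0.91 to 0.55 for DKC1, -0.68 to 0.45 for NOP10 and -0.92 to 0.62 for NOL11. They were -0.48 to 0.56 for RRP9, -0.57 to 0.84 for BYSL, -0.54 to 0.38 for NOL6, -0.85 to 0.93 for NOP16 and -0.75 to 0.87 for RRS1. With totals 15 members changed sign, with quantile normalization 12, and with the other settings over all libraries 4 or fewer, none of them called. Counting only the bases before the start, 5 members held the E-box. The footprint density within complexes was not run.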
